A study of Mus musculus with 6 samples.

Results

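Sclerostin, its closest relative and the receptors on which they act were followed in RNA of mouse aortic roots, where the aorta leaves the heart and holds its valve. The genes are Sost, its paralog Sostdc1, the co-receptors Lrp4, Lrp5 and Lrp6, and the Dickkopf receptors Kremen1 and Kremen2, 7 of the 23420 genes in the table of counts, taken by symbol. Bulk RNA sequencing covered 6 roots of C57BL6/J mice aged 12 months, 3 labelled Sost+/+ and 3 labelled Sost-/- (a loss of both copies of Sost). All 6 roots came from mice kept on standard chow until 4 months of age and on a high-cholesterol diet for the next 8 months, so no root without that diet is in the comparison. Neither the structure of the knockout allele nor the sex of the mice is stated in the labels. The labels name no litter or pool behind a root, so p-values rest on the spread from root to root, which may be technical in part. Replicates are numbered 1 to 3 within a label, and the numbers pair nothing.

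Sclerostin is a small secreted protein with a cystine knot, best known as a product of osteocytes, and it is also made by smooth muscle of the aorta. It binds the outer domains of LRP5 and LRP6, the co-receptors that Wnt ligands bring together with Frizzled receptors, and thereby keeps the beta-catenin branch of Wnt signalling low. LRP4 holds sclerostin at the cell surface and aids its action, while KREMEN proteins serve the other class of LRP antagonists, the Dickkopf proteins.

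Library totals ran from 37023586 to 48172863 counts. Levels are in CPM, counts per 1000000, with library sizes scaled by TMM (trimmed mean of M-values). Before any comparison, 2 features of the libraries need stating. The target gene goes against the genotype labels: all 3 libraries labelled Sost-/- held Sost reads, and their mean was not the lower one. Directions below are therefore between libraries as labelled. Markers of smooth muscle and of heart muscle also differed between the labels, and the summed fibroblast markers, given further below, did not overlap either. The 12 smooth muscle markers summed to between 1419 and 2796 CPM in the libraries labelled Sost+/+ and to between 4210 and 6407 CPM in those labelled Sost-/-, and 10 of the 12 rose. Acta2, smooth muscle actin and the most abundant of them, averaged 421 and 1242 CPM. The 12 cardiomyocyte markers summed to between 81541 and 88217 CPM against 54834 to 68304 CPM, and 1 of the 12, Nppb, fell. Myh6, the most abundant of them, averaged 36104 and 26059 CPM. Of the 12, 9 were lower without overlap, where 25.4% of all tested genes were without overlap in either direction. Myl7 overlapped with a log2 fold change of 0.46, as did Ryr2 (-0.03) and Nppa (-0.0041). In whole roots, fewer cells of a type and less RNA per cell cannot be told apart. The part of these cell type differences in the results below was not tested.

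All 7 genes were abundant enough to be tested, and none passed. A gene passed at a Benjamini-Hochberg adjusted p under 0.05 in the quasi-likelihood test of edgeR, fitted to 15096 genes. Of all tested genes 2.55% passed, 2.18% higher and 0.371% lower in the libraries labelled Sost-/-. Neither DESeq2 nor limma-voom called a member either, where these tools called 7.64% and 2.35% of all genes. At an unadjusted p under 0.05 there were 2 of the 7, Sost and Kremen1, where 20.2% of all tested genes lay under that value. Kremen1 was also the 1 member whose libraries did not overlap between the labels, as was the case for 25.4% of all tested genes.

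**Figure D1:**
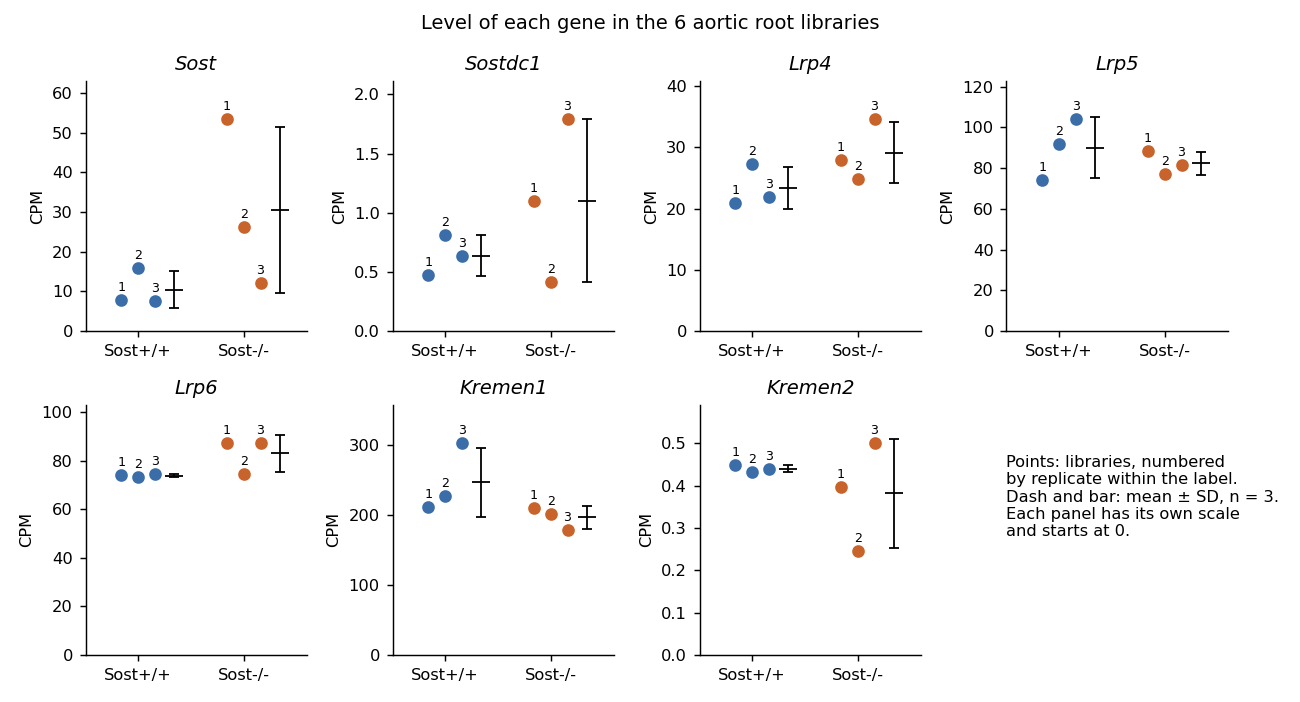
Level of each of the 7 genes in CPM (y axis, each panel with its own scale from 0) in the 3 libraries labelled Sost+/+ and the 3 labelled Sost-/-; points are libraries, numbered by replicate, and the dash with its bar is the mean ± SD. Sost and Sostdc1 spread most among the libraries labelled Sost-/-, and Kremen1 is the gene without overlap between the labels.

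The antagonist itself comes first. Sost lies on chromosome 11 (mm10, GENCODE M21, chr11:101962458-101967015, minus strand, gene ENSMUSG00000001494.6) and has 1 annotated transcript of 2 exons. Exon 1 spans 256 bases and exon 2 spans 1810 bases, which is 87.6% of the exon length, and 633 of the 2066 exonic bases are coding. No other annotated gene overlaps it. A count per gene sums both exons and the untranslated regions, so the values do not show which part of Sost the reads of the libraries labelled Sost-/- come from.

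The sequence just before the start of Sost is shown because smooth muscle is a known source of Sost in the aorta and many smooth muscle promoters carry a CArG box, the site of serum response factor. It covers the 250 bases upstream of the transcript start (RefSeq, GRCm38.p6, chr11:101967016-101967265, minus strand), written 5′ to 3′, with the E-box in capitals.
Sost upstream: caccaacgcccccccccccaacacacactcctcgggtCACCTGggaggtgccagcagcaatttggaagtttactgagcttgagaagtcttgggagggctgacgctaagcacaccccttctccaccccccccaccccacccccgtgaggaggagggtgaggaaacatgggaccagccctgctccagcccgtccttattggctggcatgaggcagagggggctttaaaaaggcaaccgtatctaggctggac
The window holds 61.2% G and C, against a median of 52.4% over 32851 promoter windows of the same length. Both strands were searched for 4 motifs. The E-box CANNTG, a site of helix-loop-helix factors, occurs once, at position -213 from the start, and is found in 66.2% of all windows. The CArG box (1.47% of windows), the MEF2 box (2.92%) and the TATA motif TATAAA (12.4%) do not occur in these letters. Such a match or its absence describes the letters only. Promoter windows were matched for Sost and Kremen2, 2 of the 7 genes.

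In the libraries labelled Sost+/+, Sost stood at 7.94, 15.8 and 7.52 CPM (354, 621 and 274 counts). In those labelled Sost-/- it stood at 53.4, 26.2 and 12.2 CPM (2284, 1063 and 513 counts). Replicates 1 and 2 labelled Sost-/- lay above all libraries of the other label, and replicate 3 lay below the highest of them, so the groups overlapped. The log2 fold change was 1.56 (SE 0.48, edgeR adjusted p = 0.124), a mean difference of 2.94-fold with a 95% interval from 1.39-fold to 6.21-fold before adjustment. The exact two-sided permutation p was 0.2, where 0.1 is the smallest that 3 against 3 libraries allow. Counting error is small beside this spread: the exact Poisson interval (95%) of the lowest Sost-/- library, 11.2 to 13.3 CPM, lay far from that of the highest, 51.2 to 55.6 CPM.

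Sost was one of the most variable genes of its abundance. Its coefficient of variation was 44.7% among the libraries labelled Sost+/+ and 68.3% among those labelled Sost-/-, where the 4970 tested genes within 2-fold of its mean level had median coefficients of 9.16% and 7.63%. Its fitted biological coefficient of variation, 0.391, was above that of 99.8% of those genes. Leaving out replicate 1 labelled Sost-/- took the log2 fold change to 0.88, and leaving out replicate 2 labelled Sost+/+ took it to 1.98. Neither value passed the test (edgeR adjusted p = 0.240 and 0.110).

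Sost was also set against the smooth muscle markers of the same library. With the summed counts of the 12 markers as the total, Sost took 4994, 5647 and 5298 of 1000000 parts in the libraries labelled Sost+/+. It took 10144, 6228 and 1911 of 1000000 parts in those labelled Sost-/-. The values labelled Sost+/+ lay within a narrow band, whereas the others ran from below that band to above it. The arithmetic means were 5313 ± 327 and 6094 ± 4118 (SD, n = 3). The exact two-sided permutation test compared mean log2 values instead, on which 1 high library weighs less, and its p was 1. Without replicate 1 labelled Sost-/- the arithmetic mean of that label was the lower of the pair, with a log2 ratio of -0.38. With the mean log2 level of the markers as a covariate, the log2 fold change of Sost was 0.72 (edgeR adjusted p = 1), and with that of the cardiomyocyte markers it was 3.75 (edgeR adjusted p = 0.420). Neither score overlapped between the labels, so these fits compare the labels at marker levels that were not measured under both.

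**Figure D2:**
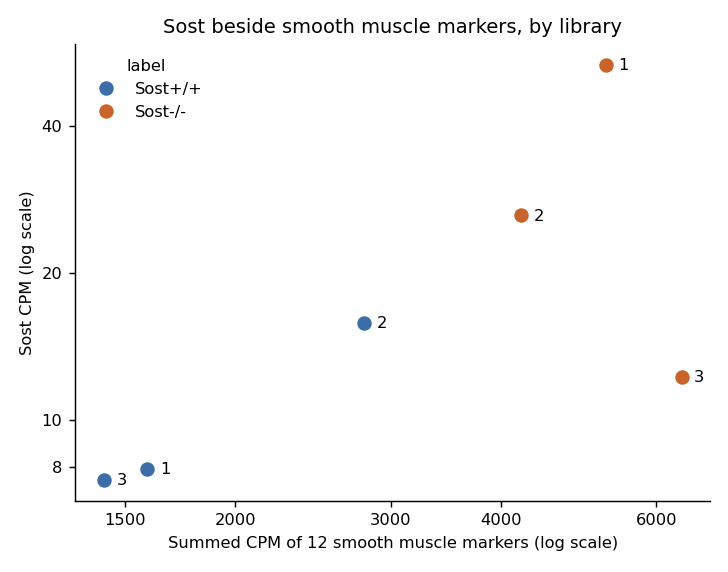
Sost in CPM (y axis, log scale) against the summed CPM of 12 smooth muscle markers (x axis, log scale), 1 numbered point per library. Replicate 3 labelled Sost-/- has the highest marker sum, 6407 CPM, with 12.2 CPM of Sost, while replicate 1 of that label has 5259 CPM of markers with 53.4 CPM of Sost.

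Other sources of Sost were looked at through their markers. Of the 6 osteocyte markers, 3 were tested and none passed, and their sum ran from 20.7 to 23.0 CPM in the libraries labelled Sost+/+ and from 20.7 to 29.5 CPM in those labelled Sost-/-. That sum was mostly Pdpn, podoplanin (21.1 and 23.5 CPM), which is also made by cells other than osteocytes. The osteocyte genes Mepe, Bglap and Fgf23 had at most 1, 6 and 11 counts in a library and were not tested. Phex, an endopeptidase gene of osteocytes, averaged 0.580 ± 0.251 and 1.69 ± 0.437 CPM (SD, n = 3) without overlap, a log2 fold change of 1.53 (SE 0.38, edgeR adjusted p = 0.0751), while Dmp1 was at -0.08 (SE 0.65, edgeR adjusted p = 0.958). The 8 chondrocyte markers summed to between 193 and 230 CPM against 199 to 253 CPM, mostly Comp (182 and 169 CPM). Of the 7 tested, whose median log2 fold change was 0.62, 1 rose, the cartilage proteoglycan gene Acan, from 1.84 ± 1.14 to 8.44 ± 2.02 CPM (SD, n = 3). Chad, another cartilage matrix gene, averaged 8.64 and 16.1 CPM without overlap and did not pass (edgeR adjusted p = 0.157). Both sums overlapped between the labels.

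Of the fibroblast markers 1 of 8, Vim, rose. All 8 had positive log2 fold changes, with a median of 0.33, where 51.3% of all tested genes were positive. Of the 8, 4 were without overlap, where 25.4% of all tested genes were without overlap in either direction. Their sum ran from 4764 to 5085 CPM in the libraries labelled Sost+/+ and from 5815 to 6665 CPM in those labelled Sost-/-, without overlap. None of the endothelial, macrophage, skeletal muscle, Schwann cell or adipocyte markers tested passed in edgeR. All 5 adipocyte markers nevertheless had positive log2 fold changes, with a median of 1.37 against 1.59 for smooth muscle, and their sum ran from 423 to 782 CPM and from 554 to 1165 CPM. All 5 Schwann cell markers were positive too, with a median of 0.51 and 3 of them without overlap, beside the same 25.4% of all tested genes. The part of these markers in the Sost result was not tested.

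Sostdc1 encodes a secreted cystine-knot protein, also called Wise or ectodin, that binds LRP co-receptors and bone morphogenetic proteins (chr12:36314139-36318452, plus strand, gene ENSMUSG00000036169.6). It was scarce. The libraries labelled Sost+/+ held 21, 32 and 23 counts (0.471, 0.814 and 0.631 CPM), and those labelled Sost-/- held 47, 17 and 75 (1.10, 0.419 and 1.79 CPM). Replicate 2 labelled Sost-/- had the lowest and replicate 3 the highest value of all 6, so the groups overlapped fully. The log2 fold change was 0.79 (SE 0.49, edgeR adjusted p = 0.400), with a 95% interval from -0.32 to 1.90. The gap between replicates 2 and 3 exceeded counting error, with exact Poisson intervals (95%) of 0.244 to 0.671 and 1.41 to 2.24 CPM.

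The paralogs were highest in different libraries: Sost was highest in replicate 1 labelled Sost-/- and Sostdc1 in replicate 3. Per length of exon, Sost stood at 5.04 ± 2.26 and 14.8 ± 10.1 RPKM (CPM per kilobase of exon, mean ± SD, n = 3, Sost+/+ first), and Sostdc1 at 0.359 ± 0.0963 and 0.619 ± 0.385 RPKM.

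Among the co-receptors, Lrp5 and Lrp6 carry the Wnt signal and are close relatives, while Lrp4 is also the receptor for agrin at the nerve-muscle synapse. Lrp6 (chr6:134446476-134566965, minus strand, gene ENSMUSG00000030201.15) had the lowest coefficient of variation of the 7 genes among the libraries labelled Sost+/+. It stood at 74.0, 73.2 and 74.5 CPM there and at 87.3, 74.4 and 87.4 CPM in those labelled Sost-/-. Replicates 1 and 3 of the latter lay above all libraries labelled Sost+/+, and replicate 2 lay within them. Counting error was wider than the Sost+/+ spread, with exact Poisson intervals (95%) of 71.5 to 76.6, 70.5 to 75.9 and 71.7 to 77.3 CPM. Lrp6 had a log2 fold change of 0.17 (SE 0.09, edgeR adjusted p = 0.327), with a 95% interval from -0.03 to 0.37. This interval reaches at most a 1.29-fold higher level.

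Lrp5 (chr19:3584828-3686564, minus strand, gene ENSMUSG00000024913.16) stood at 74.2, 91.7 and 104 CPM in the libraries labelled Sost+/+ and at 88.4, 77.2 and 81.3 CPM in those labelled Sost-/-. All values of the second label lay within the range of the first. Lrp5 had a log2 fold change of -0.13 (SE 0.12, edgeR adjusted p = 0.600), with a 95% interval from -0.41 to 0.15. Lrp5 spread more among the libraries labelled Sost+/+ than Lrp6, with coefficients of variation of 16.6% and 0.898%.

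Lrp4 (chr2:91457511-91513779, plus strand, gene ENSMUSG00000027253.15) stood at 20.9, 27.3 and 22.0 CPM in the libraries labelled Sost+/+ and at 28.0, 24.9 and 34.6 CPM in those labelled Sost-/-. Replicates 1 and 3 of the second label lay above all of the first, and replicate 2 lay among them. Lrp4 had a log2 fold change of 0.32 (SE 0.14, edgeR adjusted p = 0.252), with a 95% interval from -0.0044 to 0.64. With the smooth muscle covariate it was -0.41, and with the cardiomyocyte covariate 1.13 (edgeR adjusted p = 1 and 0.404).

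The balance of the co-receptors was compared per length. Lrp5 exceeded Lrp6 in RPKM in all 6 libraries, by 1.41, 1.76 and 1.96 times in those labelled Sost+/+ and by 1.42, 1.46 and 1.31 times in those labelled Sost-/-. The means were 1.71 ± 0.280 and 1.39 ± 0.0793 (SD, n = 3). The exact two-sided permutation p, on log2 ratios, was 0.3, where 0.1 is the smallest possible. The order rests on the length chosen: with the longest transcript in place of all annotated exons, Lrp5 exceeded Lrp6 in 5 of the 6 libraries, with means of 1.28 and 1.05. Of the summed RPKM of the 3 co-receptors, Lrp4 took 11.5% to 14.9% in the libraries labelled Sost+/+ and 14.7% to 18.3% in those labelled Sost-/-. Lrp5 took 50.7% to 58.6% and 46.3% to 50.4%. The shares of Lrp4 overlapped between the labels. Those of Lrp5 did not, but the nearest pair was 50.7% and 50.4%, and the shares were not tested. The CPM of Lrp5 did overlap, where 25.4% of all tested genes did not. Lrp6 took 29.9% to 36.0% and 34.6% to 35.5%.

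The Dickkopf receptors differed widely from each other in level. Kremen1 (chr11:5191552-5261558, minus strand, gene ENSMUSG00000020393.16), a transmembrane protein that with Dickkopf removes LRP6 from the surface, was the most abundant of the 7 genes. It stood at 211.1, 227 and 303 CPM in the libraries labelled Sost+/+ and at 209.7, 202 and 179 CPM in those labelled Sost-/-. Each library of the second label lay below all of the first, but the nearest pair, 211.1 and 209.7 CPM, had overlapping Poisson intervals (206.9 to 215.4 and 205.4 to 214.1 CPM). The log2 fold change was -0.33 (SE 0.14, edgeR adjusted p = 0.233), with a 95% interval from -0.65 to -0.0092 before adjustment. Without replicate 3 labelled Sost+/+ it was -0.16 (edgeR adjusted p = 0.431), with the smooth muscle covariate 0.11 and with the cardiomyocyte covariate -0.23 (edgeR adjusted p = 1 and 0.878).

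Kremen2 (chr17:23741197-23745833, minus strand, gene ENSMUSG00000040680.9) was near the limit of detection. The libraries labelled Sost+/+ held 20, 17 and 16 counts and the others 17, 10 and 21, or 0.440 and 0.382 CPM on average. The exact Poisson intervals (95%) of all 6 libraries overlapped. The log2 fold change was -0.20 (SE 0.39, edgeR adjusted p = 0.806), with a 95% interval from -1.07 to 0.67, and no difference was detectable at this depth. The gene 9530082P21Rik overlaps it on the other strand, and without a stated strand setting for the counting, reads of the 2 genes may not be told apart.

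**Figure D3:**
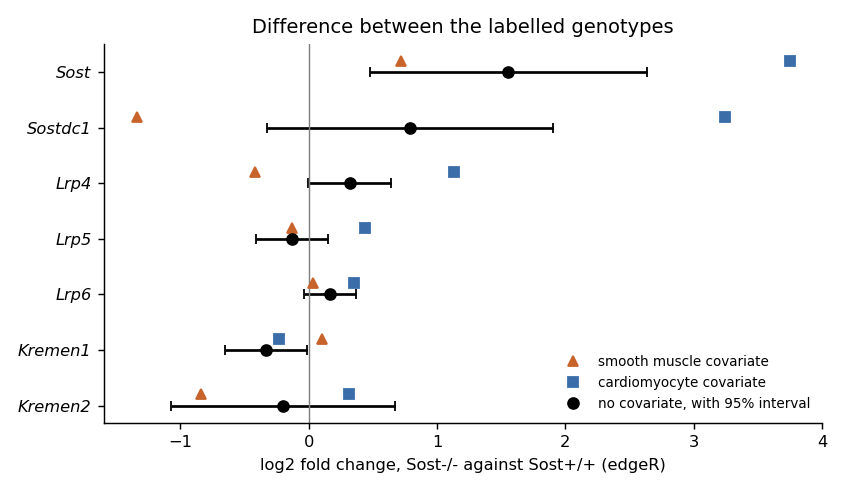
Log2 fold change of each gene with the libraries labelled Sost+/+ as the reference (x axis, edgeR), with 95% intervals before adjustment (black) and the values with a smooth muscle (triangles) or cardiomyocyte (squares) covariate. The covariates moved Sost to 0.72 and 3.75 and Sostdc1 to -1.34 and 3.25, and Lrp6 to 0.03 and 0.35.

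Averaged over the 6 libraries, the order per length of exon was Kremen1 (28.8 RPKM), Sost (9.93), Lrp5 (8.84), Lrp6 (5.74), Lrp4 (2.50), Sostdc1 (0.489) and Kremen2 (0.193). Each gene exceeded the next in the order in all 6 libraries, except Sost, which exceeded Lrp5 in 2 libraries labelled Sost-/- and in 0 labelled Sost+/+. The ranges of Kremen1 and Sost, of Sost and Lrp5, and of Sostdc1 and Kremen2 overlapped across libraries. Those of Lrp5, Lrp6, Lrp4 and Sostdc1 were separate in that order. For Lrp5 and Lrp6 this rests on the length chosen. With the longest transcript, Lrp5 ran from 8.34 to 11.7 RPKM and Lrp6 from 7.81 to 9.33 RPKM, which overlap.

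**Figure D4:**
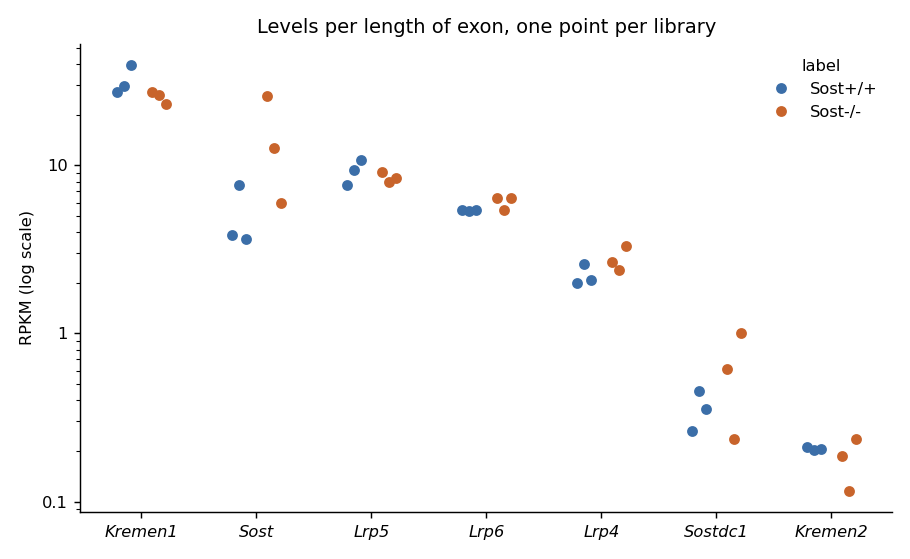
RPKM (y axis, log scale) of the 7 genes in the order of their mean level, 1 point per library. Sost spans from 3.64 to 25.8 RPKM and crosses the levels of Lrp5 and Lrp6. The 3 co-receptors keep to narrower bands, separate at this length, though Lrp5 and Lrp6 overlap with the longest transcript as the length.

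Some genes ran closely parallel to a member over the 6 libraries, by Pearson's r of log2 CPM among genes with a mean of at least 1 CPM. The 3 highest per member were picked from 13507 genes over 6 points, so values of r this high can arise between unrelated genes. The points also share the library composition, and r is given as a description. For Sost they were Fam198a (r = 0.983), Bik (r = 0.966), a gene of the BCL2 family, and the Frizzled receptor gene Fzd8 (r = 0.966). Fam198a stood at 4.19, 4.60 and 4.28 CPM and then at 6.47, 5.43 and 4.61 CPM, a far smaller span than that of Sost, and none of the 3 passed the test. For Lrp4 they were Spint2 (r = 0.995), Zfp579 (r = 0.993) and Gstm1 (r = 0.992), a protease inhibitor, a zinc finger protein and a glutathione transferase. For Lrp5 they were Cdc42ep2 (r = 0.998), Zfat (r = 0.997) and Mllt1 (r = 0.990), and for Lrp6 they were Wdr44 (r = 0.993), Slc9a2 (r = 0.988) and Hhat (r = 0.985). For Kremen1 they were Sh3tc1 (r = 0.995), Prkca (r = 0.991), which encodes a protein kinase C, and Chst7 (r = 0.989). No gene appeared for more than 1 member, and none of the 15 passed in edgeR. Sostdc1 and Kremen2 averaged less than 1 CPM and were not matched.

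The genes around Sost on chromosome 11 were read in the same fit. Within 500 kb of Sost the table holds 33 annotated genes, of which 29 were tested, 0 rose and 1 fell, or 3.45% against 2.55% of all tested genes. Their median log2 fold change was -0.02, against 0.0066 over all tested genes. The gene that fell was Meox1, a homeobox gene of the developing somites, which lies 68.1 kb from Sost towards lower coordinates (chr11:101877510-101894374). It stood at 91.3, 94.2 and 93.2 CPM in the libraries labelled Sost+/+ and at 57.8 ± 6.74 CPM (mean ± SD, n = 3) in those labelled Sost-/-, without overlap. Its log2 fold change was -0.68 (SE 0.10, edgeR adjusted p = 0.0151). The call was lost without replicate 1 labelled Sost+/+ (-0.71, edgeR adjusted p = 0.0850) and without replicate 3 labelled Sost-/- (-0.61, edgeR adjusted p = 0.0750). The value of Meox1 was -0.49 with the smooth muscle covariate and -0.84 with the cardiomyocyte covariate, in fits that called 0 genes in the whole table.

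The nearest tested neighbour was Dusp3, a dual-specificity phosphatase gene 4.13 kb from Sost towards higher coordinates (chr11:101971143-101987013). It averaged 219.9 ± 4.20 and 180.9 ± 11.3 CPM (SD, n = 3) without overlap. Its log2 fold change of -0.28 (SE 0.09) missed the threshold in edgeR (adjusted p = 0.127) and passed it in DESeq2 (adjusted p = 0.0352). On the lower side the nearest gene was 4930417O22Rik, on the other strand and 1.89 kb away, with 0 to 16 counts per library, too few to be tested.

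**Figure D5:**
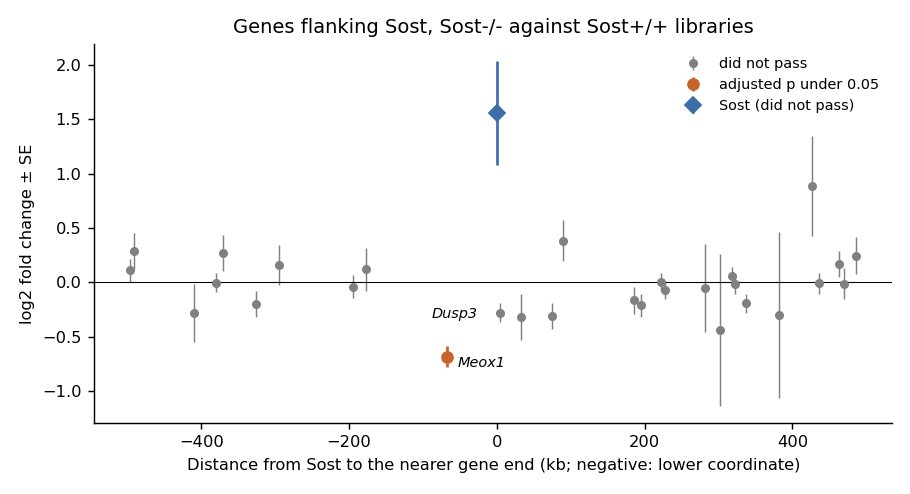
Log2 fold change ± SE (y axis, libraries labelled Sost+/+ as the reference) of the 29 tested genes within 500 kb of Sost against their distance from it in kb (x axis), with Sost at 0. Meox1, at -0.68, is the gene that passed, and Sost, at 1.56, stands above its neighbours with the wide error of its libraries.

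Genes that work with the 7 were taken from lists by role. Of the 14 listed Wnt antagonists, 12 were tested, 1 rose and 0 fell, where 2.18% of all tested genes rose and 0.371% fell. Their median log2 fold change was 0.52, with 10 positive and 2 negative. Of the 12, 6 were higher without overlap in the libraries labelled Sost-/-, where 25.4% of all tested genes were without overlap in either direction. Sfrp4, a secreted Frizzled-related protein, rose from 1.46 ± 0.148 to 3.91 ± 0.700 CPM (SD, n = 3). Its log2 fold change was 1.42 (SE 0.22, edgeR adjusted p = 0.0187). Of the Dickkopf genes, Dkk1 and Dkk4 had at most 5 and 4 counts in a library and were not tested. Dkk2 and Dkk3 of the same family were expressed. Dkk2 averaged 3.49 and 5.62 CPM (log2 fold change 0.69, SE 0.36, edgeR adjusted p = 0.322), and Dkk3, the most abundant of the 4, averaged 252 and 377 CPM (0.58, SE 0.21, edgeR adjusted p = 0.176). Smooth muscle markers differed in the same libraries. The value of Sfrp4 was 1.26 with their covariate and 1.29 with the cardiomyocyte covariate. Either fit called 0 genes in the whole table, so the absence of a call there is not particular to Sfrp4. The call of Sfrp4 was also lost without replicate 1 or 3 labelled Sost+/+ (edgeR adjusted p = 0.105 and 0.0505) or replicate 3 labelled Sost-/- (edgeR adjusted p = 0.0846).

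No gene passed in edgeR among the partners that carry the signal inside the cell or control the receptors. All 21 genes of the LRP5 and LRP6 chaperone and signalosome were tested, with a median log2 fold change of 0.08, and the member of smallest p was Caprin2 (0.45, SE 0.16, edgeR adjusted p = 0.159), which aids phosphorylation of LRP6. Their summed level ran from 1877 to 1907 CPM in the libraries labelled Sost+/+ and from 1862 to 1938 CPM in those labelled Sost-/-. Of the 9 R-spondins, LGR receptors and receptor-turnover ligases, 7 were tested (median 0.20), with the ligand gene Rspo1 at 0.67 (SE 0.22, edgeR adjusted p = 0.138). Of the 9 genes of agrin and the LRP4 and MuSK complex, 5 were tested (median 0.02). Dok7, the activator of MuSK, was at -0.51 (SE 0.12, edgeR adjusted p = 0.0558), and DESeq2 called it (adjusted p = 0.00317). The 12 other LDL receptor family genes and their chaperone had a median of 0.11, and Lrp3 had the smallest p (0.41, SE 0.11, edgeR adjusted p = 0.0951; DESeq2 called it, adjusted p = 0.0450). Of 12 regulators of Sost known from bone, 11 were tested (median 0.20), with the kinase gene Sik2 at 0.46 (SE 0.11, edgeR adjusted p = 0.0688; DESeq2 called it, adjusted p = 0.0176).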

How the data were processed

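The authors deposited whole-number counts per gene symbol, and, in a second table, a normalized signal that equals these counts divided by 1 factor per library. Per the submitters' processing notes, DRAGEN, HTSeq and DESeq2 were used with build mm10. Their versions, annotation and strand setting: not given in the sources used here. Per the labels' protocols, the RNA was taken with Trizol from snap-frozen roots and made into directional libraries. Groups follow the genotype label.

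Here, edgeR 4.0.16 in R 4.3.3 was fitted over the whole table (filterByExpr with minimum count 10 and minimum total count 15, TMM, glmQLFit, glmQLFTest, Benjamini-Hochberg adjustment over 15096 genes, threshold 0.05). The SE is the absolute log2 fold change divided by the square root of F, and 95% intervals use the t distribution of the fit. Log2 CPM used a prior count of 2. RPKM used the union of GENCODE M21 exons. For single values the exact permutation test was two-sided and compared mean log2 values. Poisson intervals cover counting error only. The fit was tested on simulated data. Alternatives were DESeq2 1.42.0 and its size factors, limma-voom (limma 3.58.1), no filter, 2 covariates, limma on log2 of the normalized values plus 1, and leaving out 1 library at a time.

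Named genes are the 7 members, the 3 genes of highest Pearson r for each member of at least 1 CPM, up to 4 called genes per list (or the 1 of smallest p), the nearest gene on either side of Sost and the most abundant marker of a list. Nppb, Myl7, Ryr2, Nppa, Vim, Acan, Chad, the osteocyte genes other than Pdpn and the Dickkopf genes were named after their values were seen. The members and lists were chosen with earlier results of these data known. Covariates were the mean log2 CPM of the smooth muscle or cardiomyocyte markers. Protein sequences were not used here. The result of 1 further list of secreted antagonists is not reported here.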

Additional observations from a re-analysis of the deposited data

How the results depend on the processing

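No paired analysis was possible because the labels number no replicates, and the numbers used here follow the order of deposition. No member passed the test in any of the 13 alternative settings, and 85 of 91 member values kept their direction. The exceptions were Sostdc1 (-1.34), Lrp4 (-0.41) and Kremen1 (0.11) with the smooth muscle covariate, Lrp5 (0.44) and Kremen2 (0.31) with the cardiomyocyte covariate, and Kremen2 without 1 library (range -0.44 to 0.028, the positive value without replicate 2 labelled Sost-/-). With the smooth muscle covariate Caprin2 (-0.016) and Rspo1 (-0.10) also turned. The cause was not tested. The log2 ratio of Sost to smooth muscle markers ran from -0.38 to 0.62 with 1 library left out, the negative value without replicate 1 labelled Sost-/-.

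Over the whole table edgeR called 385 genes and DESeq2 1159. Either covariate left 0 (at an unadjusted p under 0.05 there were 411 genes for smooth muscle and 1499 for cardiomyocytes). Leaving out 1 library gave 0 to 349: 0 without replicate 1 labelled Sost+/+ (2262 at an unadjusted p under 0.05), 118 without its replicate 3, and 218 and 10 without replicates 2 and 3 labelled Sost-/-. Of the genes flanking Sost, edgeR called 1 and DESeq2 2, either covariate left 0, and leaving out 1 library gave 0 to 1. Of the pathway list genes, edgeR called 2, edgeR with no filter 5 and DESeq2 11, and the genes called by DESeq2 are not all named here. Over the whole table edgeR called 2.55% and DESeq2 7.64% of tested genes. For the pathway list genes, either covariate left 0, and leaving out 1 library gave 0 to 2. Of 117 alternative values of the 9 other named genes tested so, 92 kept direction and call, 16 lost the call, 7 gained it and 2 turned. Depth is lowest for Kremen2, at 10 to 21 counts a library, whose counting intervals all overlap.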
